A study of Mus musculus with 6 samples.

Results

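Hmox1 and 9 further genes of the NRF2 pathway were examined in mouse bone marrow cells. The labels call them LT-HSCs, long-term haematopoietic stem cells, which renew themselves and supply all blood lineages. The 10 genes (Hmox1, Nqo1, Gclc, Gclm, Gsr, Srxn1, Txnrd1, Nfe2l2, Keap1 and Bach1) were taken by gene symbol from the 21851 genes with a symbol in each library, and all 10 were found. The mice were wild-type (WT). For 3 months 1 group ate a control diet (CD) and the other a high cholesterol diet (HCD), each with 3 libraries, and the sort gate was Lin-c-Kit+Sca1+CD34-CD135-. Strain, age and the number of animals behind a library are not stated in the labels, so a p-value here reflects the spread among the libraries, which may be technical. Values are FPKM, fragments scaled to transcript length and to library size, so levels can be set side by side between genes.

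NRF2, the protein of Nfe2l2, is a transcription factor that is made and destroyed continuously. KEAP1 hands it to a CUL3 ubiquitin ligase, and oxidants or electrophiles that modify KEAP1 let NRF2 accumulate, pair with small MAF proteins and bind antioxidant response elements near genes of glutathione, thioredoxin and quinone metabolism. BACH1 pairs with the same MAF proteins on overlapping sites, represses Hmox1 in particular, and leaves DNA when haem binds it. In blood stem cells this system is known for its part in keeping reactive oxygen low during quiescence.

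The element read by NRF2 and BACH1 has the core TGACNNNGC, and the sites below show where these letters stand near the start of member genes. Promoter windows from RefSeq (GRCm38.p6, 250 bases before to 50 after the start) were matched for 7 of the 10 genes, in 9 windows, and Hmox1, Gclc and Gsr had none. The core was searched on both strands and stood in 4 of the 9 windows, and in 12.4% of all 32851 windows of the table. The stricter form TGACTCAGC, which the core includes, stood in 0 of the 9 windows and in 0.454% of all. The 4 matches are printed with the core in capitals, on the strand that reads it.
Nfe2l2: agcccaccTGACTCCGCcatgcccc
Gclm: gtgagagtTGACGGTGCgcccggga
Txnrd1: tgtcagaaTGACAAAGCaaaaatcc
Srxn1: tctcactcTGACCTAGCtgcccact
The Nfe2l2 stretch is chr2:75704887-75704911 on the minus strand, and its core begins 240 bases before the start site. The Gclm stretch is chr3:122245415-122245439 (minus strand, 134 bases before the start). That of Txnrd1 is chr10:82859106-82859130 (minus strand, 92 bases before 1 of the gene's 3 annotated starts). That of Srxn1 is chr2:152105544-152105568 (minus strand) and lies 28 bases after the start. These are matches of letters and were not measured as bound sites.

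The libraries held 19210000 to 20390000 reads or fragments each, as estimated from the steps between low values, and FPKM sums of 427219 to 462370. HCD replicate 2 stood apart within its group: the SD over genes of its log2 difference was 0.2298 and 0.2467 from HCD replicates 1 and 3, against 0.1338 between those 2 and 0.1356 to 0.1451 between CD libraries. Although the gate excludes CD34 and CD135 on the cell surface, Cd34 was at 471 ± 15.4 FPKM (SD, n = 3) under CD and 458 ± 17.0 under HCD. Flt3, which encodes CD135, was at 114 ± 1.19 and 104 ± 4.12 FPKM. Kit (122 ± 0.84 and 118 ± 3.94 FPKM) and Ly6a, the gene of SCA1 (66.7 ± 2.89 and 61.6 ± 2.08 FPKM), were present in all 6 libraries. These 4 transcripts did not pass the test between diets.

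The diets were compared to find transcripts that differ after months of added cholesterol. Of the 10 genes 1 passed: Hmox1 fell under HCD. The test was limma on log2(FPKM + 1), over the 10676 genes that reached 1 FPKM in 3 or more libraries, with a threshold of 0.05 on the adjusted p. In it 13.9% of the tested genes passed, of which 670 (6.28%) were higher under HCD and 818 (7.66%) lower. Scaling by TMM factors gave 748 higher against 614 lower, and taking out the dependence on transcript length gave 764 against 574. Transcript length and the log2 change correlated at a Spearman rho of -0.252, so longer transcripts tended to be lower under HCD. The cause of this trend was not tested. The median log2 change of the 10 genes was -0.005, beside -0.03 over all tested genes, with 5 of the 10 above 0 and 5 below. In 4 of the 10 the diets did not overlap (3 lower and 1 higher under HCD), where 37.7% of all tested genes did not overlap. Both counts are near the background. In the plot of log2 changes Hmox1 is the gene that lies outside the central range of tested genes.

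**Figure D1:**
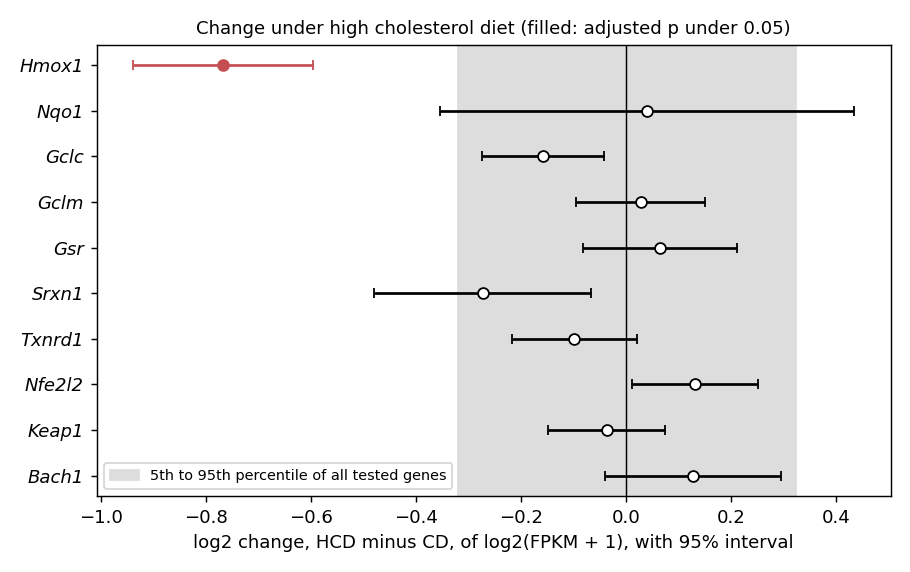
Log2 change (HCD minus CD, on log2(FPKM + 1)) of each of the 10 genes, with its 95% interval from limma; filled points passed an adjusted p of 0.05 and the grey band spans the 5th to the 95th percentile of all 10676 tested genes (-0.32 to 0.32). Hmox1, at -0.77, lies outside the band, and the other 9 lie inside it.

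Hmox1 encodes haem oxygenase 1, the inducible enzyme that splits haem into biliverdin, carbon monoxide and iron. It lies on chromosome 8, from 75093621 to 75100589 (GRCm38, plus strand, protein coding). It stood at 5.83, 5.42 and 5.83 FPKM in CD replicates 1 to 3 and at 2.95, 2.94 and 2.89 FPKM in HCD replicates 1 to 3. Every HCD library was below every CD library. The means were 5.69 ± 0.24 and 2.93 ± 0.03 FPKM (SD, n = 3), a level 1.94-fold lower under HCD. On log2(FPKM + 1) the change was -0.77 (SE 0.08, 95% interval -0.94 to -0.60, limma adjusted p = 0.000843). On this scale 18 of the 10676 tested genes had a larger fall. The added 1 makes changes of low transcripts smaller than their fold, and with 0.1 added instead the change of Hmox1 was -0.94.

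Hmox1 is a low transcript in these cells: its mean level was above 19.9% of the tested genes, and with a median transcript length of 1569 bases its values stand for about 164 to 179 reads per CD library and 88.4 to 94.5 per HCD library. Counting error alone would then give an SD of 7.5% to 7.8% of the value under CD and 10.3% to 10.6% under HCD. The SD between libraries was smaller, 4.16% and 1.03%, so the SD of 0.03 FPKM understates the error of the HCD level if each read counts once. limma takes its error partly from genes of like level.

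Hmox2, which encodes the haem oxygenase that is made without induction, was at 46.4 ± 1.25 FPKM under CD and 46.4 ± 5.35 under HCD. Its log2 change was -0.01 (95% interval -0.18 to 0.17, limma adjusted p = 0.954), and the difference in response between Hmox1 and Hmox2 was not tested. The step after haem oxygenase is taken by biliverdin reductases, and their genes Blvra (12.8 ± 1.89 and 12.3 ± 0.85 FPKM) and Blvrb (12.5 ± 0.96 and 13.3 ± 0.75 FPKM) did not pass.

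**Figure D2:**
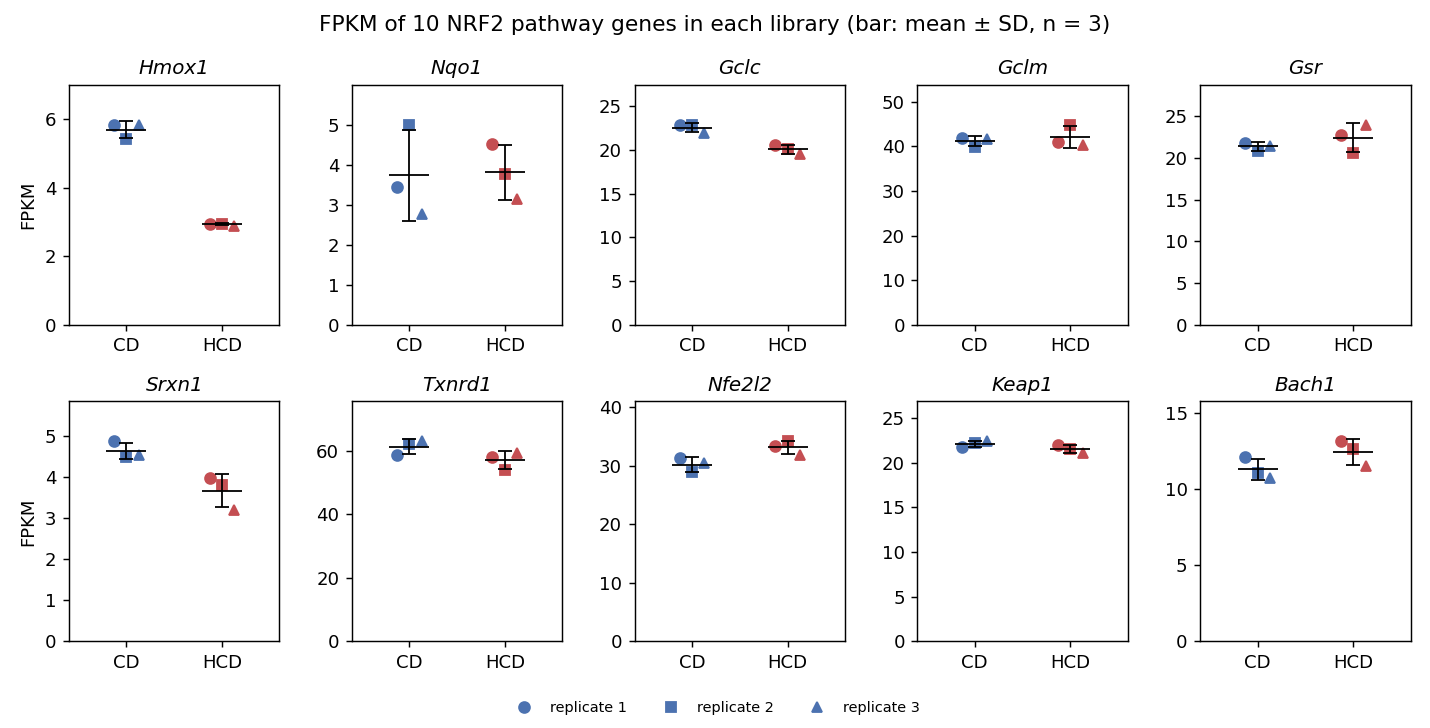
FPKM of each of the 10 genes in each library (marker shape: replicate; blue: CD, red: HCD; black: mean ± SD, n = 3; every axis starts at 0). Hmox1 parts the diets by the widest relative gap, Gclc, Srxn1 and Nfe2l2 part them narrowly, and Nqo1 spreads most within a diet.

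Nqo1 (chromosome 8, 107388225 to 107403206, minus strand), the gene of the quinone reductase that is the usual readout of NRF2 activity, did not pass. Its levels were 3.43, 4.99 and 2.77 FPKM under CD and 4.51, 3.76 and 3.14 FPKM under HCD. The diets overlapped over most of their range, and the log2 change was 0.04 with a wide 95% interval of -0.36 to 0.43 (adjusted p = 0.897). The SD was 30.5% of the mean under CD, above the 8.2% to 11% that counting gives, so a change of moderate size in Nqo1 was not detectable. Its sign turned when CD replicate 3 (log2 change -0.11) or HCD replicate 1 (-0.06) was left out.

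Glutathione is built in a rate-limiting step by glutamate-cysteine ligase, whose catalytic subunit is encoded by Gclc and whose modifier subunit by Gclm. Gclc (chromosome 9, 77754535 to 77794485, plus strand) was at 22.9, 22.8 and 21.9 FPKM under CD and 20.6, 20.1 and 19.6 FPKM under HCD. The groups did not overlap, but the gap was narrow and the log2 change of -0.16 (SE 0.05, 95% interval -0.28 to -0.04) missed the threshold (adjusted p = 0.0722). Without HCD replicate 2 it passed, at an adjusted p of 0.0475.

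Gclm (chromosome 3, 122245557 to 122270732, plus strand), at 41.9, 39.9 and 41.6 FPKM under CD and 41.0, 44.8 and 40.2 FPKM under HCD, overlapped between diets. Its log2 change was 0.03 (95% interval -0.10 to 0.15, adjusted p = 0.761), and -0.02 without HCD replicate 2, the library that held its highest value. As a description chosen after the values were seen, the Gclc to Gclm ratio was 0.546, 0.572 and 0.527 under CD and 0.502, 0.449 and 0.487 under HCD. The modifier subunit's transcript was thus the more abundant in every library, and the ratios of the diets did not overlap.

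Gsr (chromosome 8, 33652523 to 33698163, plus strand) encodes glutathione reductase, which returns oxidised glutathione to its reduced form with NADPH. It was at 21.8, 20.8 and 21.4 FPKM under CD and 22.8, 20.6 and 23.9 FPKM under HCD. HCD held both the lowest and the highest value, and the log2 change was 0.06 (95% interval -0.08 to 0.21, adjusted p = 0.528).

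In the thioredoxin branch, Srxn1 encodes sulfiredoxin, which repairs over-oxidised peroxiredoxins, and Txnrd1 the cytosolic thioredoxin reductase. Srxn1 (chromosome 2, 152105516 to 152111376, plus strand) was low, at 4.86, 4.49 and 4.53 FPKM under CD and 3.99, 3.81 and 3.21 FPKM under HCD. All HCD libraries were below all CD libraries. Its log2 change of -0.27 (SE 0.09, 95% interval -0.48 to -0.07) was the second most negative of the 10 genes and missed the threshold (adjusted p = 0.0793), while without HCD replicate 2 the adjusted p was 0.0476.

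Txnrd1 (chromosome 10, 82833951 to 82897712, plus strand) was the most abundant of the 10 transcripts, above 89.1% of tested genes, at 58.6, 62.3 and 63.0 FPKM under CD and 58.0, 54.1 and 59.5 FPKM under HCD. The diets overlapped, and the log2 change was -0.10 (95% interval -0.22 to 0.02, adjusted p = 0.234). The gene Eid3 lies within the Txnrd1 locus, and antisense transcripts overlap Txnrd1, Gclm and Keap1. How the authors shared reads among overlapping genes is not stated in the labels or headers.

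The regulators were well above Hmox1 and Nqo1 in level. Nfe2l2 (chromosome 2, 75675513 to 75704641, minus strand) itself was at 31.3, 28.8 and 30.4 FPKM under CD and 33.4, 34.1 and 31.8 FPKM under HCD. The HCD libraries were all above the CD libraries, by a gap smaller than the range within either diet. The log2 change was 0.13 (SE 0.05, 95% interval 0.01 to 0.25) and did not pass (adjusted p = 0.132).

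Keap1 (chromosome 9, 21229730 to 21239361, minus strand), the gene of the adaptor that marks NRF2 for destruction, was at 21.7, 22.1 and 22.4 FPKM under CD and 21.9, 21.5 and 21.0 FPKM under HCD. The diets overlapped and the log2 change was -0.04 (95% interval -0.15 to 0.07, adjusted p = 0.642). Bach1 (chromosome 16, 87698945 to 87733346, plus strand), the gene of the haem-sensing repressor of Hmox1, was at 12.1, 11.03 and 10.7 FPKM under CD and 13.1, 12.7 and 11.5 FPKM under HCD. These overlapped as well, with a log2 change of 0.13 (95% interval -0.04 to 0.30, adjusted p = 0.275). The order of the mean levels over 6 libraries was Txnrd1, Gclm, Nfe2l2, Gsr, Keap1, Gclc, Bach1, Hmox1, Srxn1 and Nqo1. In 2 stretches of that order the sequence differed between the diets. Under CD the means ran Gclc, Keap1, Gsr and Hmox1, Srxn1, Nqo1 from high to low, and under HCD both triples ran the other way. All Hmox1 values lay above all Srxn1 values under CD, and below all Srxn1 and Nqo1 values under HCD. Gclc overlapped Keap1 under CD and lay below it in all HCD libraries, while Nqo1 overlapped Srxn1 under both diets. These orders were not tested.

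The ratio of the transcripts of NRF2 and BACH1, the activator and the repressor, was 2.67 ± 0.13 (SD, n = 3) under CD and 2.67 ± 0.12 under HCD. The ratio of Hmox1 to Bach1 was 0.505 ± 0.033 and 0.236 ± 0.014. Nfe2l2 to Keap1 was 1.44, 1.30 and 1.36 under CD and 1.52, 1.58 and 1.51 under HCD, without overlap. These ratios are of transcripts and were picked after their parts were seen, so they carry no test. NRF2 is regulated mainly as a protein, which was not measured.

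Further genes were taken in 8 lists drawn up by function, with earlier results of these data known. They held 93 tested genes, of which 11 rose and 8 fell. All 8 fallers were heat shock genes, and that list is described apart. In the other 7 lists, with 78 tested genes, 10 (12.8%) rose and 0 fell. Over all tested genes 6.28% were called higher and 7.66% lower, the background for each list below. Cybb, 1 of the 10, passed the filter on low values only through the HCD libraries, and 9 of 77 rose without it. Fallers in these 7 lists did appear under 2 alternatives. Over all alternatives there were 6 to 14 risers. Quantile normalization gave 12 risers and 3 fallers (Prdx1, Fth1 and Ftl1), and leaving out HCD replicate 2 gave 12 risers and 4 fallers (Prdx1, Txn2, Dpp3 and Cyba). The plot of changes by list shows which lists held the calls.

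Detoxification genes had 4 risers and 0 fallers among the 12 tested of 18, and their median log2 change was 0.16. Gstm1, a glutathione S-transferase gene, went from 52.6 ± 0.45 to 78.5 ± 4.63 FPKM (log2 change 0.57, adjusted p = 0.000638). Ptgr1, the gene of a reductase of prostaglandins and lipid aldehydes, went from 6.76 ± 0.77 to 10.3 ± 0.49 FPKM (adjusted p = 0.00712). Mgst1, a membrane-bound glutathione transferase gene, went from 7.30 ± 1.36 to 11.6 ± 0.38 FPKM (adjusted p = 0.0101, and 0.0534 without CD replicate 1). Ephx1, an epoxide hydrolase gene, went from 1.25 ± 0.09 to 2.17 ± 0.51 FPKM (adjusted p = 0.0387). That call was lost without filtering (0.0712) and without CD replicate 1, 2 or 3 (0.128, 0.119 and 0.0995) or HCD replicate 3 (0.0849). Osgin1, an NRF2-responsive gene, was at 3.52 ± 0.17 and 2.57 ± 0.71 FPKM and did not pass (adjusted p = 0.121).

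Among 17 tested glutathione, thioredoxin and peroxiredoxin genes 1 rose and 0 fell, with a median of 0.07. It was the stress-response gene Sesn2, from 3.82 ± 0.51 to 5.10 ± 0.19 FPKM (adjusted p = 0.0441). The call was lost without filtering (0.0724), without CD replicate 1, 2 or 3 (0.0517, 0.136 and 0.154) and without HCD replicate 1 or 3 (0.0955 and 0.0991). With the replicate block Glrx (glutaredoxin, adjusted p = 0.0392) and Prdx5 (peroxiredoxin 5, adjusted p = 0.0496) passed too, both higher under HCD. The list's cystine transporter gene Slc7a11 was almost silent, at 0.005 to 0.073 FPKM. Among the 5 tested enzymes that form NADPH, Idh1 (cytosolic isocitrate dehydrogenase) rose from 12.1 ± 1.06 to 15.8 ± 0.25 FPKM (adjusted p = 0.0132), the other 4 did not pass, and the list's median was 0.10.

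Of 19 tested haem and iron genes 2 rose and 0 fell, with a median of -0.01. Alas1, which encodes the enzyme that starts haem synthesis outside red cells, went from 16.4, 17.6 and 16.9 FPKM under CD to 23.6, 24.1 and 24.9 FPKM under HCD (log2 change 0.49, SE 0.05, adjusted p = 0.00131). Alas1 thus rose where Hmox1 fell, and its groups did not overlap. Slc48a1, a haem transporter gene, went from 49.7 ± 1.09 to 56.6 ± 2.34 FPKM (adjusted p = 0.0349). It lost its call without filtering (0.0537), without CD replicate 1, 2 or 3 (0.121, 0.0887 and 0.137) and without HCD replicate 1 or 3 (0.0594 and 0.0686). The ferritin genes Fth1 (914 ± 21.9 and 931 ± 41.9 FPKM) and Ftl1 (674 ± 12.8 and 671 ± 24.9 FPKM), known targets of NRF2 and BACH1, did not pass. With quantile normalization both were called lower (limma adjusted p = 0.013 and 0.0306), and for Fth1 that turned the sign.

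Of 16 tested regulators and partners of NRF2, 1 rose and 0 fell, with a median of -0.02. Sqstm1 encodes p62, which binds KEAP1 and is itself an NRF2 target, and went from 67.5 ± 1.40 to 82.9 ± 2.65 FPKM (log2 change 0.29, adjusted p = 0.00529). Of the small MAF genes, Mafk (18.0 ± 0.72 and 18.3 ± 1.24 FPKM) and Mafg (7.64 ± 0.65 and 6.77 ± 0.95 FPKM) did not pass. Maff was at 4.77, 4.61 and 4.95 FPKM under CD and 8.35, 4.76 and 8.14 FPKM under HCD, with HCD replicate 2 at the CD level. It did not pass (adjusted p = 0.113), but it passed with the replicate block (0.0419), with quantile normalization (0.0492) and without HCD replicate 2 (0.000284). Cul3, the ligase scaffold gene, was at 38.4 ± 0.48 and 39.1 ± 0.12 FPKM.

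On the side of oxidant formation and removal, 0 of 3 tested superoxide and peroxide enzymes passed by limma (Sod1 at 349 ± 4.22 and 381 ± 22.7 FPKM, Cat at 57.4 ± 2.65 and 55.9 ± 6.08 FPKM), with a median of -0.03. Of 6 NADPH oxidase subunit genes 1 rose, with a median of 0.02. It was Cybb, the catalytic subunit of phagocytes, from 0.49 ± 0.07 to 1.25 ± 0.05 FPKM (adjusted p = 0.00715), which was tested through its HCD libraries alone.

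**Figure D3:**
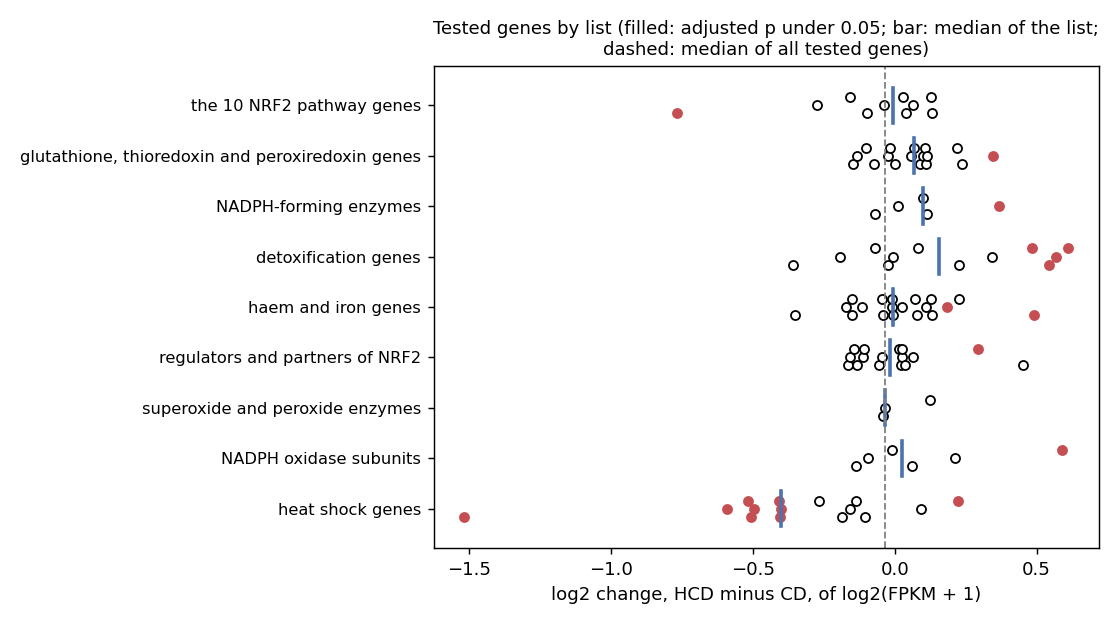
Log2 change (HCD minus CD) of every tested gene in the 8 lists and of the 10 genes; filled points passed an adjusted p of 0.05, blue bars are list medians and the dashed line is the median of all tested genes (-0.03). Hmox1 is the lone filled point of the 10 genes, the 10 filled points of the next 7 lists all lie above 0, and 8 of the 9 filled points among heat shock genes lie below 0.

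Haem oxygenase 1 is also known as a heat shock protein, and the heat shock list was the one of the 8 lists that held fallers. It had 8 fallers and 1 riser among 15 tested genes, and its median log2 change was -0.40. Hsph1, an HSP110 chaperone gene, went from 48.5, 49.5 and 49.6 FPKM under CD to 15.8, 17.0 and 16.7 FPKM under HCD (log2 change -1.52, adjusted p = 2.05e-06). Dnaja1 fell from 101 ± 1.03 to 69.9 ± 1.28 FPKM (adjusted p = 0.000279), Hspd1 from 244 ± 5.71 to 172 ± 5.86 FPKM (adjusted p = 0.000638) and Hsp90aa1 from 565 ± 14.2 to 375 ± 22.9 FPKM (adjusted p = 0.00077). The remaining 4 fallers were Chordc1, Hspa4, Hspe1 and Hspa8. Another 6 genes did not pass: Hsf1, Hsf2, Bag3, Hsp90ab1, Hspa1a (7.85 ± 0.43 and 8.62 ± 2.16 FPKM) and Hspa1b (14.8 ± 1.66 and 12.4 ± 3.67 FPKM). Without HCD replicate 2, Hspa1a was called higher (limma adjusted p = 0.0129) and Hsp90ab1 lower (0.00121). Quantile normalization also called Hsp90ab1 lower (0.00091). The riser was Dnajb1, an HSP40 gene, at 50.9 ± 0.94 and 59.7 ± 4.68 FPKM (adjusted p = 0.0428). It lost its call without filtering (0.0805), without CD replicate 1, 2 or 3 (0.116, 0.139 and 0.136) and without HCD replicate 1 or 3 (0.127 and 0.0991). Whether Hmox1 and these genes share a cause was not tested.

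Hmox1 is abundant in marrow macrophages, so their markers are set beside it. The summed level of the 16 macrophage markers was 32.6 to 33.1 FPKM under CD and 28.3 to 33.4 FPKM under HCD. Most of each sum came from Cd68 and Csf1r, which were both higher under HCD, so the sums say little of the other markers. Of the 16, 0 were at 0 in every library, though Marco and Timd4 were at 0 in some, and 7 stayed under 1 FPKM in every library. Among the 8 tested there were 3 fallers and 2 risers (median log2 change -0.43). C1qa, a complement gene of macrophages, was at 2.07, 1.81 and 1.67 FPKM under CD and 0.370, 0.790 and 0.485 FPKM under HCD (adjusted p = 0.00373). C1qb was at 2.26, 2.0 and 2.65 FPKM and 0.660, 0.852 and 0.938 FPKM (adjusted p = 0.00274), and Vcam1, an adhesion molecule gene, at 1.38 ± 0.04 and 0.61 ± 0.28 FPKM (adjusted p = 0.0231, and 0.0597 without HCD replicate 3). These 3, like Cd163 below, passed the filter on low values only through the CD libraries. The count of fallers and the median are therefore no support for a fall of these markers. C1qc (1.95 ± 0.77 and 0.71 ± 0.49 FPKM) did not pass (adjusted p = 0.0553), but was called lower with the replicate block (0.00557), with the length trend removed (0.0459) and without HCD replicate 2 (0.00537).

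The macrophage genes that rose were Csf1r, the M-CSF receptor gene, at 6.37 ± 0.24 and 8.61 ± 0.67 FPKM (adjusted p = 0.0151, but 0.0644, 0.068 and 0.0559 without CD replicate 1, 2 or 3), and Cd68 at 13.9 ± 0.44 and 16.6 ± 1.06 FPKM (adjusted p = 0.039). Cd68 lost its call without CD replicate 1, 2 or 3 (0.145, 0.104 and 0.106), without HCD replicate 3 (0.0961), without filtering (0.0619) and with the length trend removed (0.0531). Cd163 (1.21 ± 0.04 and 0.82 ± 0.04 FPKM) and Spic, a factor of macrophages that recycle red cells (1.5 ± 0.47 and 1.24 ± 0.66), did not pass. The other markers were too low to be tested. Of these, Adgre1, which encodes F4/80, was at 0.40 ± 0.11 and 0.45 ± 0.25 FPKM. Lower means under HCD were seen for Cd5l (0.92 ± 0.27 and 0.31 ± 0.12), Mrc1 (0.50 ± 0.12 and 0.25 ± 0.07) and Mertk (0.16 ± 0.05 and 0.04 ± 0.05). The same held for Siglec1 (0.13 ± 0.02 and 0.06 ± 0.05), Fcgr1, Marco and Timd4. Fewer cells of a type and less RNA per cell cannot be told apart in bulk libraries, and the part of these markers in the fall of Hmox1 was not tested.

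Some genes listed as markers of other cell types moved as well. The 10 mature neutrophil markers summed to 13.3 to 13.5 FPKM under CD and 41.9 to 50.6 under HCD. Of them 6 were tested and higher under HCD, but Camp, Lcn2 and Retnlg were under 1 FPKM in every CD library and were tested only because they were higher under HCD, so the count is no support. The other 3, S100a8, S100a9 and Ngp, reached 1 FPKM in CD libraries too. Without any 1 HCD library 3 genes of the list were called, and 2 with a filter of 5 FPKM. Monocyte markers had 5 risers among 6 tested, with sums of 32.9 to 37.6 and 80.4 to 88.4 FPKM, and Itgam lost its call without CD replicate 1 or 3 (0.0557 and 0.0513). The glutathione transferase and oxidase genes Mgst1 and Cybb, which are expressed in myeloid cells, moved with these markers, and the markers' part in those rises was not tested. Of 3 tested erythroid genes Hbb-bt, a beta globin gene, was lower, from 4.78 ± 0.05 to 3.48 ± 0.31 FPKM (adjusted p = 0.0218). Its call was lost without CD replicate 1, 2 or 3 (0.0862, 0.0744 and 0.0848) or HCD replicate 1 (0.0813).

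Of 2 tested B cell genes 0 passed by limma. Nkg7, a cytotoxic granule gene listed for T and NK cells, rose from 104 ± 2.76 to 136 ± 11.4 FPKM (adjusted p = 0.00739), and Pdgfrb, listed for stroma, from 15.7 ± 1.05 to 21.8 ± 0.33 FPKM (adjusted p = 0.00311). The NK cell gene Klrb1c and the stroma gene Sparc were also called higher, but were under 1 FPKM in every CD library and were tested through HCD alone. Klrb1c lost its call without filtering (0.0618) and without CD replicate 1 or 2 (0.131 and 0.116), and Sparc without CD replicate 1 (0.0537). Of the endothelial genes Pecam1 rose from 32.5 ± 1.51 to 41.0 ± 2.09 FPKM (adjusted p = 0.00937) and Emcn fell from 11.2 ± 0.45 to 7.80 ± 0.41 FPKM (adjusted p = 0.0043). Under 1 FPKM in every library were 3 of the 5 T and NK genes (Cd3e, at 0 throughout, Cd3g and Cd8a). So were 4 of the 6 stroma genes (Col1a1, Col1a2, Cxcl12 and Lepr) and 2 of the 4 endothelial genes (Cdh5 and Kdr). Whether the called genes stand for these cell types was not tested.

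Among 11 tested stem cell and gate genes Slamf1, the gene of CD150, was called higher (1.79 ± 0.47 and 3.41 ± 0.27 FPKM), as was Vwf (2.67 ± 0.34 and 4.02 ± 0.29 FPKM). Hlf (56.2 ± 0.76 and 48.8 ± 1.76 FPKM) and Fgd5 (4.47 ± 0.54 and 3.16 ± 0.04 FPKM) were called lower. None of the 4 calls held in every alternative, and all 4 were lost without CD replicate 1. Slamf1 lost its call without CD replicate 1 or 3 (0.0597 and 0.0562), and Vwf without CD replicate 1 or 2 (0.0812 and 0.077) or HCD replicate 1 (0.0728). Hlf lost its call with TMM factors (0.0647), with the length trend removed (0.266), without CD replicate 1, 2 or 3 (0.0985, 0.0841 and 0.0765) and without HCD replicate 1 or 3 (0.0855 and 0.0557). Fgd5 lost its call with the length trend removed (0.0719), without CD replicate 1 or 3 (0.0843 and 0.102) and without HCD replicate 1 or 3 (0.0835 and 0.06).

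The 5 tested genes nearest to Hmox1 in pattern were Myl10, Shisa8, Rag2, Plxdc2 and P4ha1. Likeness was the root mean square difference between log2(FPKM + 1) profiles, each centred on its own mean over the 6 libraries, so it weighs the shared diet difference most. The differences were 0.055 for Myl10 and Shisa8, 0.057 for Rag2, 0.061 for Plxdc2 and 0.087 for P4ha1. Shisa8 was at 24.3, 24.5 and 24.9 FPKM under CD and 13.2, 13.02 and 13.1 FPKM under HCD, above the level of Hmox1. Its SD was 0.28 and 0.08 FPKM, beside 0.24 and 0.03 FPKM for Hmox1, and so was smaller relative to its level. Rag2, a recombinase gene of lymphoid precursors, went from 2.28 ± 0.15 to 1.03 ± 0.10 FPKM, and P4ha1, a collagen prolyl hydroxylase gene, from 14.4 ± 0.32 to 9.13 ± 0.08. Plxdc2 went from 1.84 ± 0.11 to 0.64 ± 0.10 FPKM. It passed the filter on low values only through the CD libraries, so its place among the 5 is no support. The other 9 pathway genes were left out of this search, so it does not show how near they lie to Hmox1.

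**Figure D4:**
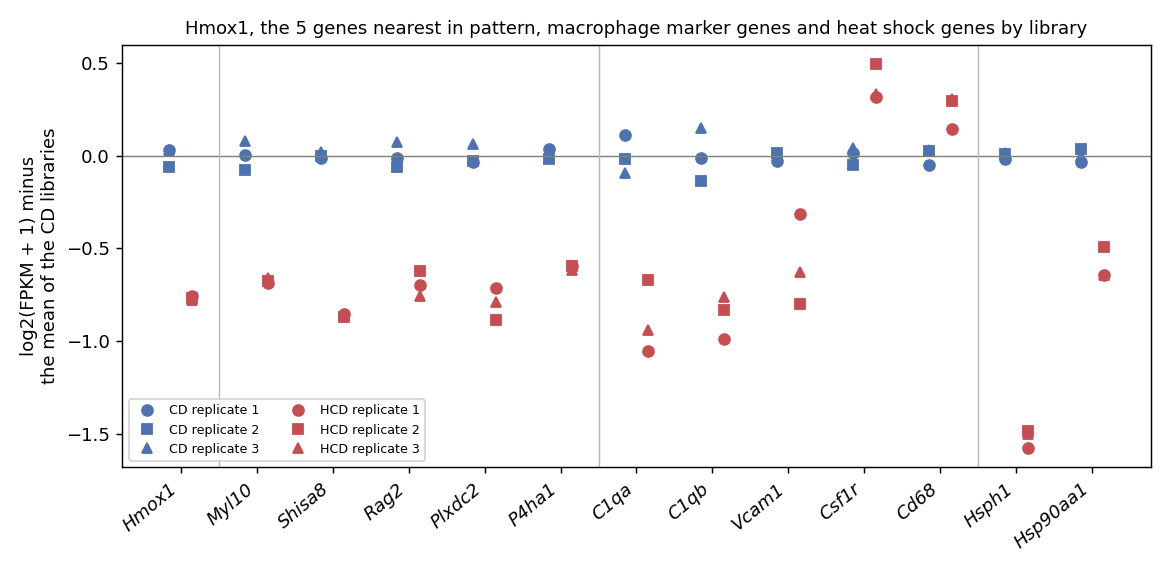
Log2(FPKM + 1) of each library minus the mean of the CD libraries (blue: CD, red: HCD; marker shape: replicate) for Hmox1, the 5 genes nearest to it in pattern, 5 macrophage markers and 2 heat shock genes. The HCD libraries of Hmox1 and its 5 neighbours sit close together below 0, those of C1qa and Vcam1 are more spread, and those of Csf1r and Cd68 lie above 0.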

How the data were processed

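RNA sequencing libraries of sorted mouse bone marrow cells (3 CD, 3 HCD) were compared. Per the submitters' processing notes, the tools were fastp, HISAT2 and StringTie, with no versions, on GRCm38 (also listed as mm10), and per the labels' protocols the libraries were stranded mRNA libraries. The deposited values, 1 table per library, were taken as FPKM computed by the authors, from the values and the use of StringTie, since the headers name only the sample. Of 21878 rows, 27 had dates as names and were dropped (0.127% of the FPKM). Low values were whole multiples of 1 read within 0.02 in 90.2% of 1963 low genes (0.1% with wrong relative depths), which gave the depth.

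The test was limma 3.58.1 (R 4.3.3), two-sided, trended and robust, on log2(FPKM + 1), for genes that reached 1 FPKM in 3 or more libraries, with Benjamini-Hochberg adjustment over all of them and a threshold of 0.05. Alternatives were another pseudocount, other filters, quantile and TMM scaling, removal of the length trend, a replicate block, and leaving out each library. The fit was also run on simulated counts. These had no length trend and no outlying library, so they do not show its error rate in these data. Positions and lengths are from GENCODE vM21 (96.98% of tested genes had a length). Members, lists, tests and alternatives were chosen with earlier results of these data known. Named genes were all 10 members, the list genes past the threshold (the 4 with the smallest p where more than 6 passed), the most abundant genes of a list with none, markers, and the 5 genes nearest to Hmox1; list genes named beyond this were chosen after their values were seen.

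Deviations of same-numbered CD and HCD libraries from their group means correlated at 0.103, 0.292 and 0.166, all above the bound of 0.1, and the labels do not say that numbers pair. The highest value between different numbers was 0.098.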

Additional observations from a re-analysis of the deposited data

How the results depend on the processing

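Hmox1 stayed lower under HCD and past the threshold in all 13 alternatives, with log2 changes from -0.94 (pseudocount of 0.1) to -0.74 (quantile normalization) and adjusted p from 0.000229 to 0.0103. In the paired fit with the replicate block it was -0.77 (adjusted p = 0.00114), 1 of the 10 genes passed and 1873 genes passed in all, against 1488, and the block changed no call among the 10. In the lists it ended no call and added calls that include Glrx, Prdx5, Maff and C1qc. The count of the 10 genes past the threshold ranged from 1 to 3 when single libraries were left out, with 3 (Hmox1, Gclc and Srxn1) without HCD replicate 2. With a library left out, 435 genes passed in all when it was CD replicate 1 and 2672 when it was HCD replicate 2, with 551, 509 and 688 for CD replicate 2, CD replicate 3 and HCD replicate 1. Over these, Nqo1 ranged from -0.11 (CD replicate 3 left out; -0.06 for HCD replicate 1) to 0.22, and Gclm from -0.019 (HCD replicate 2 left out) to 0.058, so the signs of both turned, and neither was called. A filter of 5 FPKM removes Nqo1 and Srxn1 from the test, and Hmox1 stays in it only through the CD libraries. That alternative is therefore no support for the fall of Hmox1. For 85 genes other than Hmox1 (members, called list genes and most others named), 61 of 1046 values lost a call. Of the 61, 51 lost it with a library left out, and 19 other values gained a call. The sign of 10 of the 85 genes turned, and 1 of the turned values was called (Fth1 with quantile normalization, -0.12). Other signs that turned were Hmox2 (0.0097) with quantile normalization, Hmox2 (0.0187) and Ftl1 (0.0187) with TMM factors, and Fth1 (-0.0044) and Kit (0.0394) with the length trend removed. With a library left out Blvra ranged from -0.110 to 0.0689, Cat from -0.126 to 0.0102, Fth1 from -0.0094 to 0.0529, Ftl1 from -0.0375 to 0.0139, Hmox2 from -0.092 to 0.0694, Mafk from -0.0275 to 0.0625 and Spic from -0.354 to 0.0875. Of 221 list counts 58 moved by over 1.5 times, 48 down and 10 up. The cause was not tested. The depth limits Hmox1, Nqo1 and Srxn1 most.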
